A study of Mus musculus with 12 samples.

Results

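The genes described here take glucose from the cell membrane to lactate, to acetyl-CoA or into the pentose phosphate branch. They were chosen by name, as 34 mouse gene symbols covering glucose and lactate transporters, the glycolytic enzymes, pyruvate dehydrogenase with its kinases, and pentose phosphate enzymes. The rule for choosing genes uses no measured value, but the list was made with earlier results of these data known. Of the 34 genes, 30 had a probe set (a group of short array probes read as 1 value) assigned to that gene symbol alone, and all 30 lay above the low-signal filter, among 14645 genes tested of 18193 with such a probe set. Gpi1, Eno1 and G6pdx were not analysed here. Gapdh, which oxidises glyceraldehyde 3-phosphate, was represented by 3 probe sets shared with other gene symbols and by 3 array control probe sets, so it was described but not tested.

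The study asked how prostate epithelial cells of intact mice compare with those of castrated mice. Male C57BL/6 mice had both testes removed by surgery at 8 weeks of age or were left intact, and all were killed 4 weeks later, so the castrated animals had lost testicular androgen and the intact animals had not. Luminal cells, which face the gland lumen, were sorted as lineage-negative, EpCAM-positive cells with low CD49f, and basal cells, which sit on the basement membrane, as lineage-negative, EpCAM-positive cells with high CD49f. Each cell type was taken from intact and from castrated mice, with 3 arrays per group and 12 in all, which the labels call biological replicates from 3 distinct sets of mice. The labels name no genetic change in any group, no sham operation for the intact mice and no single lobe of the dissociated prostates.

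Glycolysis splits glucose to pyruvate in the cytosol, with hexokinase and phosphofructokinase as its main control points, and fructose 2,6-bisphosphate, made and removed by the Pfkfb enzymes, is a strong activator of phosphofructokinase. Pyruvate is then reduced to lactate and exported by monocarboxylate transporters, or oxidised to acetyl-CoA by pyruvate dehydrogenase, which the Pdk kinases switch off. The pentose phosphate pathway uses glucose 6-phosphate to make NADPH and ribose, and prostate luminal cells are known for an unusual metabolism in which citrate is secreted rather than fully oxidised.

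The basal markers followed the labels in intact and castrated mice, and the luminal keratins did so in part. The basal keratins Krt5 and Krt14 and the basal transcription factor Trp63 were lower in luminal than in basal cells, with luminal minus basal at -7.08, -7.02 and -5.76 on the log2 scale in intact mice and at -9.16, -7.90 and -7.95 in castrated mice. The luminal keratins Krt8 and Krt18 were 0.84 and 0.55 higher in intact luminal cells (Krt18 lost its call without intact luminal replicate 3 or intact basal replicate 1 or 2, adjusted p 0.0551 to 0.0722). In castrated mice Krt8 was 0.62 higher in luminal cells, a call lost without castrated luminal replicate 2 or castrated basal replicate 1 or 2 (adjusted p 0.0509 to 0.0810), and Krt18 did not pass, at -0.20 (adjusted p = 0.416; 0.54 and past the threshold under quantile normalization). Pbsn, the androgen-dependent secretory gene probasin, fell by 3.57 in luminal and by 7.12 in basal cells after castration, and its signal in the intact basal arrays was 9468, 4705 and 12419. Epcam, used in the sort, was 0.79 higher in luminal than in basal cells of intact mice (limma adjusted p = 7.29e-04). It rose by 0.73 in basal cells after castration (limma adjusted p = 0.0127). Actb changed by -0.59 in luminal cells after castration (limma adjusted p = 0.0351), lost in 5 of 12 fits without 1 array. Its luminal minus basal difference in castrated mice was -0.70 (limma adjusted p = 0.00482). Both Actb calls were lost under quantile normalization. Markers of other cells differed between groups. The summed signal of 11 fibroblast genes was 8050 to 14656 in intact and 767 to 991 in castrated luminal arrays, and 40743 to 51807 in intact and 24358 to 29609 in castrated basal arrays. That of 11 leukocyte genes was 10291 to 13053 and 531 to 922 in luminal arrays, and 1335 to 2821 and 1977 to 2962 in basal arrays. In luminal cells 7 of the 11 fibroblast genes and 1 of the 11 leukocyte genes fell after castration, against 2.96% of all genes tested. Col1a1, Fbln2, Pdgfra, Sparc, Thy1, Cd79a and Ptprc were dim on every castrated luminal array (at or below the 40th percentile of the array). The part of these cells in the results was not tested. Since each array holds RNA of many cells, fewer cells of a type and less RNA per cell cannot be told apart. Arrays of equal group correlated at 0.863 to 0.967, and the replicate 3 array had the lowest estimated array weight in each of the 4 groups. The ratio of 3′ to 5′ Gapdh control signal, a sign of RNA integrity, had group medians of 6.17 to 6.93. Single arrays ran from 4.18 (castrated basal) to 8.7 (intact basal).

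Values below are the deposited MAS5 signal, a linear brightness with no absolute unit, and differences are on the scale of log2(signal + 16), which understates changes of dim genes. A gene passed when limma's moderated test gave a Benjamini-Hochberg adjusted p under 0.05 over all 14645 genes. Standard errors (given after ±, beside log2 differences) pool the spread of the 4 groups.

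Most of the 30 genes did not pass the test after castration, and the largest differences were between the cell types. In luminal cells, castration lowered Pfkfb3 and Ldhb, 2 of 30 against 5.86% of all genes tested (2.90% higher and 2.96% lower). In basal cells, it raised Hk2 and lowered Pfkfb2 and Tpi1, 3 of 30 against 2.62% (1.12% higher and 1.50% lower). Luminal differed from basal cells for 11 of 30 members in intact mice (6 higher, 5 lower in luminal), against 19.5% of all genes (11.0% higher and 8.45% lower), and for 10 of 30 in castrated mice (5 higher, 5 lower), against 18.4% (11.2% higher and 7.22% lower). The castration change differed between luminal and basal cells for 1 of 30, Pfkfb3, against 1.15% (0.676% positive and 0.471% negative).

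The median castration change of the 30 genes was -0.09 in luminal cells, as for all genes tested (-0.09), and 0.07 in basal cells against -0.11. Their median luminal minus basal difference was 0.19 in intact mice against 0.07 over all genes, and 0.05 in castrated mice against 0.08. After castration, 18 of the 30 had lower and 12 higher means in luminal cells, and 15 had lower and 15 higher means in basal cells. When each array was centred on its own median, the median castration change of all genes moved from -0.09 to 0.29 in luminal cells and from -0.11 to 0.23 in basal cells. The luminal split then became 2 higher (Aldoc and Pdk4) and 1 lower (Pfkfb3), and the 3 basal calls were all higher (Hk2, Ldha and Pkm).

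**Figure D1:**
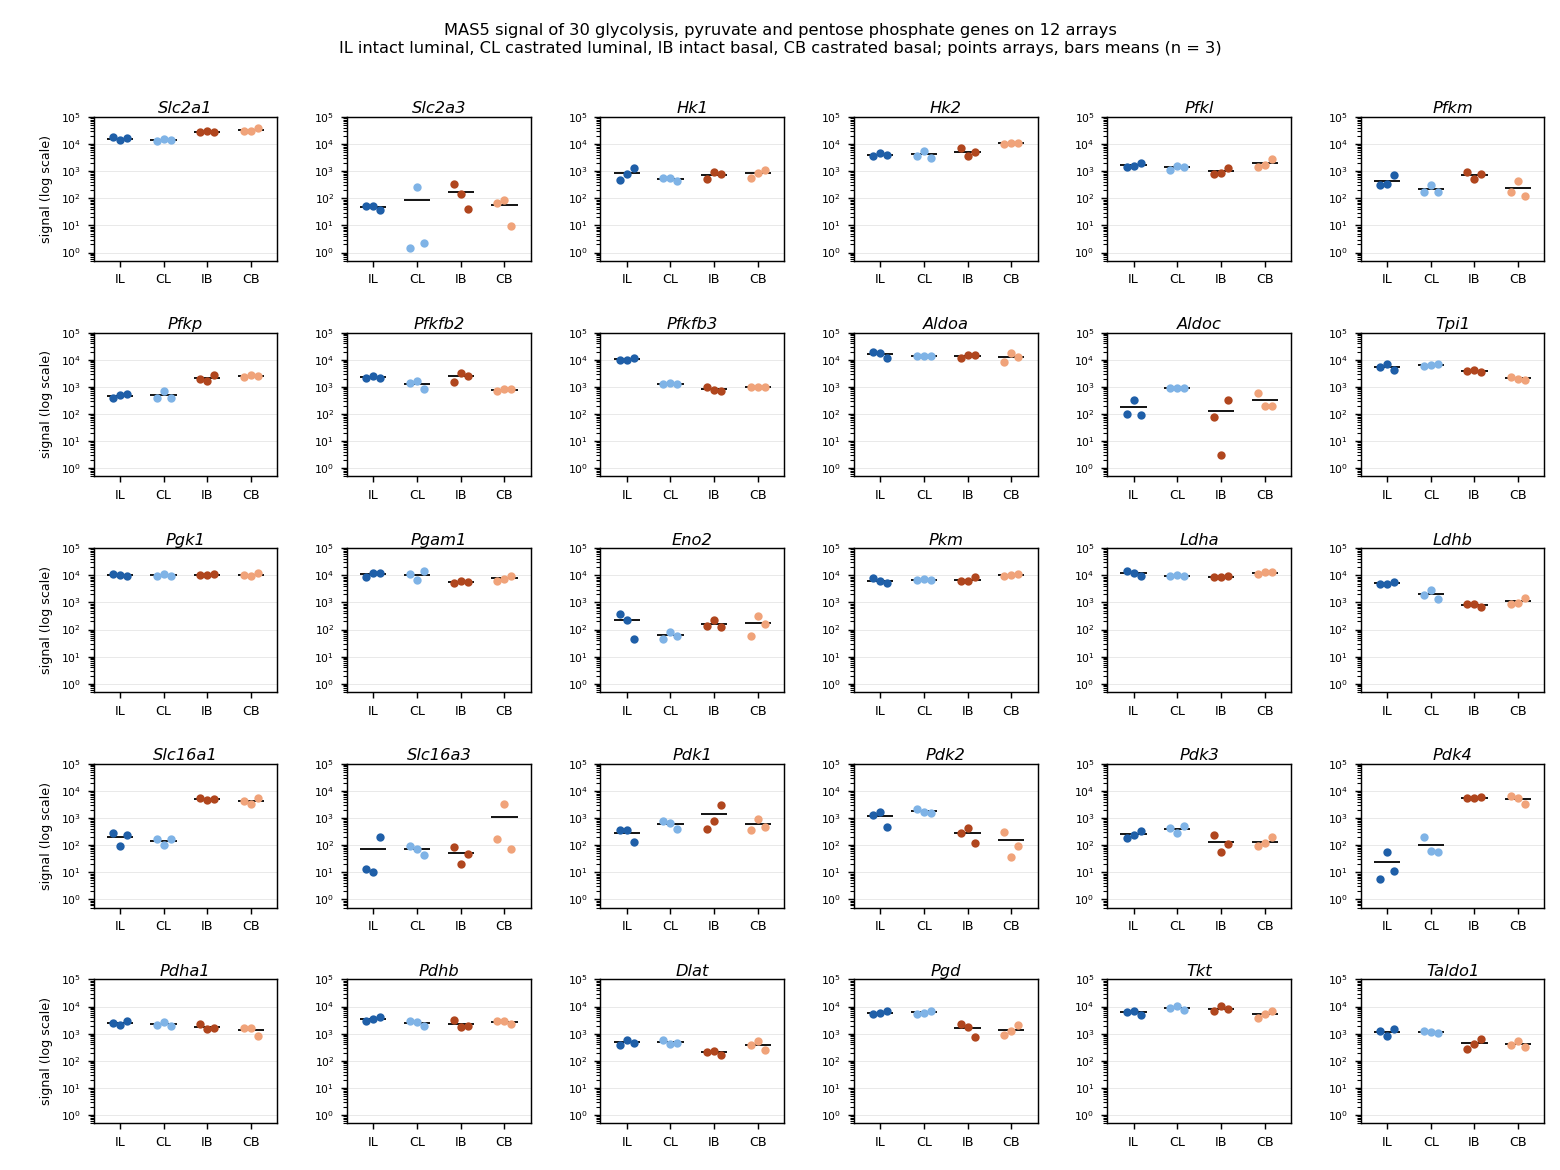
MAS5 signal (log scale) of the 30 measured genes on each of the 12 arrays, 1 panel a gene, with points for arrays and bars for the mean of 3. Pfkfb3 and Ldhb stand highest in the intact luminal group, Pdk4 and Slc16a1 in both basal groups, while Pgk1 lies between 9513 and 12107 on every array.

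Slc2a1 was higher in basal than in luminal cells of intact and castrated mice, and Hk2 in those of castrated mice. Slc2a1 encodes GLUT1, the glucose transporter of most proliferating and epithelial cells. Its signal was 17747, 13669 and 16608 in intact and 13589, 16008 and 14138 in castrated luminal arrays, and 27899, 29603 and 29049 in intact and 29869, 29561 and 38365 in castrated basal arrays. Every basal array lay above every luminal array, and luminal minus basal was -0.86 ± 0.14 in intact mice (adjusted p = 4.61e-04) and -1.15 ± 0.14 in castrated mice (adjusted p = 2.79e-05). The 2 other Slc2a1 probe sets gave the same sign in both, between -1.12 and -0.77 in intact mice. Without the intensity trend in the variance model, the intact difference had an adjusted p of 0.0583. Castration changed Slc2a1 by -0.13 ± 0.14 in luminal and 0.17 ± 0.14 in basal cells, neither past the test. Slc2a3, the high-affinity transporter GLUT3, was dim and scattered, from 1.44 to 332 over the 12 arrays, and passed in no comparison.

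Hk2, the inducible hexokinase that traps glucose as glucose 6-phosphate, was the member that rose in basal cells after castration. Its signal was 3640.5, 4663 and 4017 in intact and 3781, 5655 and 3019.6 in castrated luminal arrays, and 7090.4, 3542 and 5064 in intact and 9832, 10977 and 11309 in castrated basal arrays. The 3 castrated basal arrays were the highest of the 12, above all intact basal arrays, whereas intact and castrated luminal arrays overlapped. The change was 1.08 ± 0.27 in basal cells (adjusted p = 0.0389) and -0.03 ± 0.27 in luminal cells. Luminal cells were lower than basal cells in castrated mice, at -1.41 ± 0.27 (adjusted p = 0.00117), and in intact mice the difference was -0.30 ± 0.27 (adjusted p = 0.489). The basal rise was lost without intact luminal replicate 2, castrated luminal replicate 1, intact basal replicate 2 or 3, or any 1 castrated basal array (adjusted p 0.0510 to 0.124). It was also lost under 6 of 15 other settings, among them the replicate sets as a block (1.08, adjusted p = 0.0573). Hk1, the constitutive hexokinase, lay between 434 and 1329 on the 12 arrays and passed in no comparison.

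Of the 3 phosphofructokinase subunits, Pfkp (the platelet form) was higher in basal cells, and Pfkl (liver form) and Pfkm (muscle form) passed in no comparison. Pfkp signal was 399, 501 and 529.6 in intact and 402, 702 and 397 in castrated luminal arrays, and 1883, 1662 and 2710.3 in intact and 2383, 2681 and 2536 in castrated basal arrays. The lowest basal array was above the highest luminal array, with luminal minus basal at -2.07 ± 0.35 in intact (adjusted p = 4.17e-04) and -2.35 ± 0.35 in castrated mice (adjusted p = 1.28e-04). The other 2 Pfkp probe sets gave larger differences, down to -4.01 in intact and -3.60 in castrated mice. Castration moved Pfkp by 0.03 ± 0.35 in luminal and 0.31 ± 0.35 in basal cells, neither past the test. The other 2 probe sets disagreed on this change, at -1.49 and 0.46 in luminal and -0.63 and 0.04 in basal cells. Pfkm came closest to the test after castration in basal cells, where its signal was 961, 538 and 768 in intact and 175, 445 and 120.0 in castrated mice (-1.72 ± 0.55, adjusted p = 0.104).

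Pfkfb3, which mostly makes fructose 2,6-bisphosphate, had the largest castration response of the 30 genes, and it was in luminal cells. Its signal was 9702, 9569.5 and 11449.8 in intact and 1239.7, 1372 and 1265 in castrated luminal arrays, and 981, 795 and 685 in intact and 992, 1021 and 1014 in castrated basal arrays. The intact luminal arrays stood apart from the other 9, and the mean fell from 10241 ± 1049 (SD, n = 3) to 1292 ± 70, a 7.82-fold drop on the log2(signal + 16) scale. The summed leukocyte signal was also highest on the intact luminal arrays (10291 to 13053, against 531 to 922 on castrated luminal arrays). Most single genes of that list did not pass. Of the 11, 1 fell in luminal cells after castration (2.96% of all genes). In intact mice 1 was higher (11.0% of all genes) and 1 lower (8.45%) in luminal than in basal cells. The part of the leukocyte signal in the Pfkfb3 difference was not tested. The luminal change was -2.97 ± 0.27 (adjusted p = 3.66e-06), the basal change 0.31 ± 0.27 (adjusted p = 0.592), and the difference between these changes -3.28 ± 0.38 (adjusted p = 5.84e-04). In intact mice luminal exceeded basal cells by 3.63 ± 0.27 (adjusted p = 9.18e-08), a comparison that shares the intact luminal arrays with the luminal castration comparison. In castrated mice the difference was 0.35 ± 0.27 (adjusted p = 0.405), and the order of the group means was intact luminal, castrated luminal, castrated basal and intact basal, of which only the first step passed the test. A second Pfkfb3 probe set gave -3.63 for the luminal change and 3.61 for the intact cell type difference, but -1.31 for the basal change, so its interaction was smaller, at -2.32. The luminal fall, the intact cell type difference and the interaction of the chosen probe set passed in each of the 12 fits that left out 1 array and each other setting in which they were computed.

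Pfkfb2, the form expressed in heart and other tissues, was lower after castration in both cell types and passed in basal cells. Its signal was 2075, 2587 and 2149.9 in intact and 1425, 1669 and 835 in castrated luminal arrays, and 1528, 3190.0 and 2523 in intact and 706, 852 and 812 in castrated basal arrays. All castrated basal arrays lay below all intact basal arrays, a change of -1.53 ± 0.34 (adjusted p = 0.0283). In luminal cells the castrated arrays also lay below the intact arrays, at -0.84 ± 0.34, which did not pass (adjusted p = 0.184), and the difference between the 2 changes was 0.70 ± 0.49 (adjusted p = 0.601). The 3 other Pfkfb2 probe sets also fell in basal cells, the smallest by 0.71. The basal call was lost without castrated luminal replicate 1, intact basal replicate 2 or 3, or any 1 castrated basal array (adjusted p 0.0504 to 0.0884), and under 6 of 15 other settings.

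In the aldolase and triose steps, Tpi1 was the member that passed. Tpi1 encodes triosephosphate isomerase, which interconverts the triose phosphates made by aldolase. Its signal was 5435, 7122 and 4283 in intact and 5984, 6639 and 6701 in castrated luminal arrays, and 3704, 4029 and 3638 in intact and 2382, 1980.0 and 1737 in castrated basal arrays. Every castrated basal array was below all other arrays, and castrated luminal arrays were all above the castrated basal ones. Castration changed Tpi1 by -0.90 ± 0.23 in basal cells (adjusted p = 0.0469), and luminal minus basal in castrated mice was 1.67 ± 0.23 (adjusted p = 7.72e-05). The basal fall was lost in 9 of 12 fits without 1 array (any intact basal or castrated luminal array, intact luminal replicate 1, or castrated basal replicate 2 or 3, adjusted p 0.0625 to 0.115). It was also lost under 10 of 15 other settings, among them the replicate block (-0.90, adjusted p = 0.0574). Another Tpi1 probe set put it at -0.11.

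Aldoa, the main aldolase outside liver and brain, ranged from 8282 to 18657 over the arrays and passed nowhere. Aldoc, the brain form, gave one of the wider castration differences in luminal cells without passing. Its signal was 101, 330.2 and 89.4 in intact luminal and 920.2, 926 and 919 in castrated luminal arrays. The groups did not overlap and the castrated arrays lay close together, but the difference did not pass (2.53 ± 0.82, adjusted p = 0.0827), and Aldoc varied from 3.02 to 322 among intact basal arrays. A second, dimmer Aldoc probe set gave -0.07 for the luminal change.

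Of the 4 lower glycolytic enzymes tested, Pgam1 passed, in intact mice. Pgk1, phosphoglycerate kinase, which makes the first ATP of the pathway, lay between 9513 and 12107 on all 12 arrays, and its 4 differences were between -0.09 and -0.01. Pgam1, the phosphoglycerate mutase of most tissues, was higher in luminal cells. Its signal was 8945, 11734 and 11858 in intact and 11348, 6563 and 13863 in castrated luminal arrays, and 5149, 6134 and 5889.7 in intact and 6243, 7553 and 9308 in castrated basal arrays. Intact luminal arrays lay above all intact basal arrays (0.91 ± 0.25, adjusted p = 0.0145), while in castrated mice the groups overlapped. The intact call was lost without intact luminal replicate 2 or intact basal replicate 1 (adjusted p 0.0523 to 0.0573) and without the intensity trend. Pkm, pyruvate kinase of muscle and most proliferating cells, came just short in castrated mice, where every basal array (9548, 9956 and 10869.5) exceeded every luminal array (6590.2, 7189.5 and 6896), with luminal minus basal at -0.55 ± 0.20 (adjusted p = 0.0599). Eno2, the neuronal enolase, was dim, from 44.2 to 392, and passed nowhere. The 3′ control probe set of Gapdh, described without a test, averaged 19883 ± 2602 (SD, n = 3) in intact and 18882 ± 1660 in castrated luminal cells, and 23886 ± 2485 in intact and 24664 ± 3691 in castrated basal cells.

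At the lactate step, Ldhb was higher in intact luminal cells and Slc16a1 in basal cells. Ldhb, the lactate dehydrogenase subunit of oxidative tissues such as heart, was highest in intact luminal cells and fell with castration. Its signal was 4678, 4884 and 5741 in intact and 1931, 2843 and 1386 in castrated luminal arrays, and 889, 846 and 699 in intact and 900.1, 992 and 1503 in castrated basal arrays. The intact luminal arrays were above all castrated luminal arrays, and these above all intact basal arrays. The luminal change was -1.36 ± 0.32 (adjusted p = 0.0166), and luminal exceeded basal cells in intact mice by 2.63 ± 0.32 (adjusted p = 2.06e-05). In castrated mice castrated luminal replicate 3 lay within the basal range, and the difference of 0.83 ± 0.32 did not pass (adjusted p = 0.0842). The basal change was 0.44 ± 0.32, and the difference between luminal and basal changes, -1.80 ± 0.45, fell short (adjusted p = 0.0673). It passed when the probe sets of a gene were averaged (-2.09, adjusted p = 0.0201). All 4 Ldhb probe sets fell in luminal cells, by 1.12 to 1.36. In basal cells the 3 probe sets not chosen rose by 0.82 to 1.38. Their differences between luminal and basal changes were -2.51 to -2.01, wider than that of the chosen probe set. The luminal call was lost without intact luminal replicate 3, castrated luminal replicate 1 or castrated luminal replicate 3 (adjusted p 0.0597 to 0.120), and under median centring (-0.98, adjusted p = 0.0848), as under 3 other settings.

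Ldha, the subunit typical of glycolytic tissue, passed in no comparison. It lay between 8332 and 14567 on the 12 arrays, and its nearest approach to the test was the intact cell type difference of 0.47 ± 0.17 (adjusted p = 0.0658).

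Slc16a1 encodes MCT1, a proton-coupled carrier of lactate and pyruvate. Its signal was 272, 95.7 and 231 in intact and 170.4, 98 and 167 in castrated luminal arrays, and 5339, 4527 and 5221 in intact and 4314, 3377 and 5294 in castrated basal arrays. The basal arrays were all at 3377 or above and the luminal arrays all at 272 or below, in intact and castrated mice alike. Luminal minus basal was -4.66 ± 0.40 in intact (adjusted p = 5.80e-07) and -4.76 ± 0.40 in castrated mice (adjusted p = 5.39e-07), which is 25.2-fold and 27.2-fold on the log2(signal + 16) scale. A second, dimmer probe set gave -1.28 and -2.35. Slc16a3, which encodes the lactate exporter MCT4, was dim on most arrays, and 1 array, castrated basal replicate 2, stood at 3178 beside 171 and 69.8 in the other 2 of its group. It passed in no comparison.

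The pyruvate dehydrogenase kinases differed between the cell types in opposite directions. Pdk4, the kinase induced in fasting and by fatty acids, had the largest luminal to basal difference of the 30 genes. Its signal was 5.49, 55.9 and 11.2 in intact and 200.5, 59.9 and 54.2 in castrated luminal arrays, and 5333, 5735 and 5837 in intact and 6530.1, 5562 and 3382 in castrated basal arrays. Every basal array was at 3382 or above and every luminal array at 200.5 or below, and 2 of the 3 intact luminal arrays lay at or below the 40th percentile of their array, a low signal. Luminal minus basal was -7.34 ± 0.53 in intact (adjusted p = 8.48e-08) and -5.57 ± 0.53 in castrated mice (adjusted p = 1.52e-06). In luminal cells the castrated arrays ran higher but overlapped the intact ones, and the change of 1.59 ± 0.53 did not pass (adjusted p = 0.0926). In basal cells castration changed Pdk4 by -0.18 ± 0.53 and Slc16a1 by -0.24 ± 0.40, neither past the test. Fibroblast markers were also higher in basal than in luminal arrays. Of these 11 genes, 3 were lower in luminal cells of intact mice (8.45% of all genes) and 6 in those of castrated mice (7.22%). Their part in the Pdk4 and Slc16a1 differences was not tested.

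Pdk2, the broadly expressed kinase, ran the other way. Its signal was 1338, 1642 and 468 in intact and 2154, 1692 and 1586 in castrated luminal arrays, and 281, 436 and 118 in intact and 315, 37.9 and 96 in castrated basal arrays. Each luminal array was above each basal array, with luminal minus basal at 3.84 ± 0.64 in castrated (adjusted p = 4.30e-04) and 1.97 ± 0.64 in intact mice (adjusted p = 0.0398). The castrated difference passed in every setting run, and the intact one was lost in 7 of 12 fits without 1 array (intact luminal replicate 1 or 2, any castrated luminal array, intact basal replicate 1 or 3, adjusted p 0.0574 to 0.156).

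Pdk1, the hypoxia-inducible kinase, was lower in intact luminal cells, at 354, 370.0 and 133 against 411, 770.4 and 3133 in intact basal cells. The groups did not overlap, but intact basal replicate 3 was far above its group. The difference of -1.88 ± 0.63 passed narrowly (adjusted p = 0.0466), and without that array it was -1.06 (adjusted p = 0.232). It was lost in 9 of 12 such fits (all but those without intact basal replicate 1 and castrated basal replicates 2 and 3, adjusted p 0.0502 to 0.232) and with the replicate block (-1.88, adjusted p = 0.0591), and 2 of 3 other Pdk1 probe sets had the opposite sign, up to 0.92. Pdk3 passed in no comparison, with its lowest adjusted p for luminal minus basal in castrated mice (1.48 ± 0.58, adjusted p = 0.0857). The pyruvate dehydrogenase subunits themselves, Pdha1 and Pdhb of its first enzyme and Dlat of its second, also passed in none, and the nearest was Dlat in intact mice (1.15 ± 0.45, adjusted p = 0.0869). The other Dlat probe sets gave -0.23 and 0.20.

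Pgd and Taldo1 were higher in luminal than in basal cells of intact and castrated mice, and Tkt in those of castrated mice. Pgd, 6-phosphogluconate dehydrogenase, the second NADPH-producing enzyme of the pathway, gave signals of 5280.1, 5755 and 6680.4 in intact and 5210.1, 5802 and 7146 in castrated luminal arrays, and 2336, 1751 and 749 in intact and 883, 1228 and 2169.9 in castrated basal arrays. All 6 luminal arrays were above all 6 basal arrays, by 2.00 ± 0.38 in intact (adjusted p = 0.00119) and 2.16 ± 0.38 in castrated mice (adjusted p = 6.22e-04), and the 3 other probe sets had the same sign, down to 1.26 and up to 2.94 in intact mice. When probe sets that the array maker marks as open to cross-hybridisation were dropped, the intact difference was 1.26 (adjusted p = 0.0895).

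Taldo1, transaldolase, which with transketolase returns pentoses to glycolysis, gave 1224, 824 and 1512 in intact and 1255, 1142 and 1027 in castrated luminal arrays, and 273, 422 and 663 in intact and 394, 515 and 335 in castrated basal arrays. Again every luminal array exceeded every basal array, by 1.40 ± 0.41 in intact (adjusted p = 0.0224) and 1.44 ± 0.41 in castrated mice (adjusted p = 0.020). The intact call was lost without intact luminal replicate 1 or 3 or intact basal replicate 1 (adjusted p 0.0668 to 0.0916), and the castrated one without any 1 castrated luminal array or castrated basal replicate 3 (adjusted p 0.0538 to 0.0868).

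Tkt, transketolase, differed in castrated mice. Its signal was 6446, 6865 and 5033 in intact and 8974, 10252 and 7491 in castrated luminal arrays, and 6729, 10548 and 7942 in intact and 3922, 5192 and 6612 in castrated basal arrays. Castrated luminal arrays were all above castrated basal arrays (0.78 ± 0.23, adjusted p = 0.0270), while in intact mice the luminal and basal groups overlapped slightly and the difference was -0.45 ± 0.23 (adjusted p = 0.210). Luminal and basal castration changes were 0.54 ± 0.23 and -0.69 ± 0.23, and the difference between them, 1.23 ± 0.33, did not pass (adjusted p = 0.0928). The castrated call was lost without castrated luminal replicate 1 or 2 or castrated basal replicate 1 or 2 (adjusted p 0.0572 to 0.122), and when probe sets were averaged (0.63, adjusted p = 0.304).

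**Figure D2:**
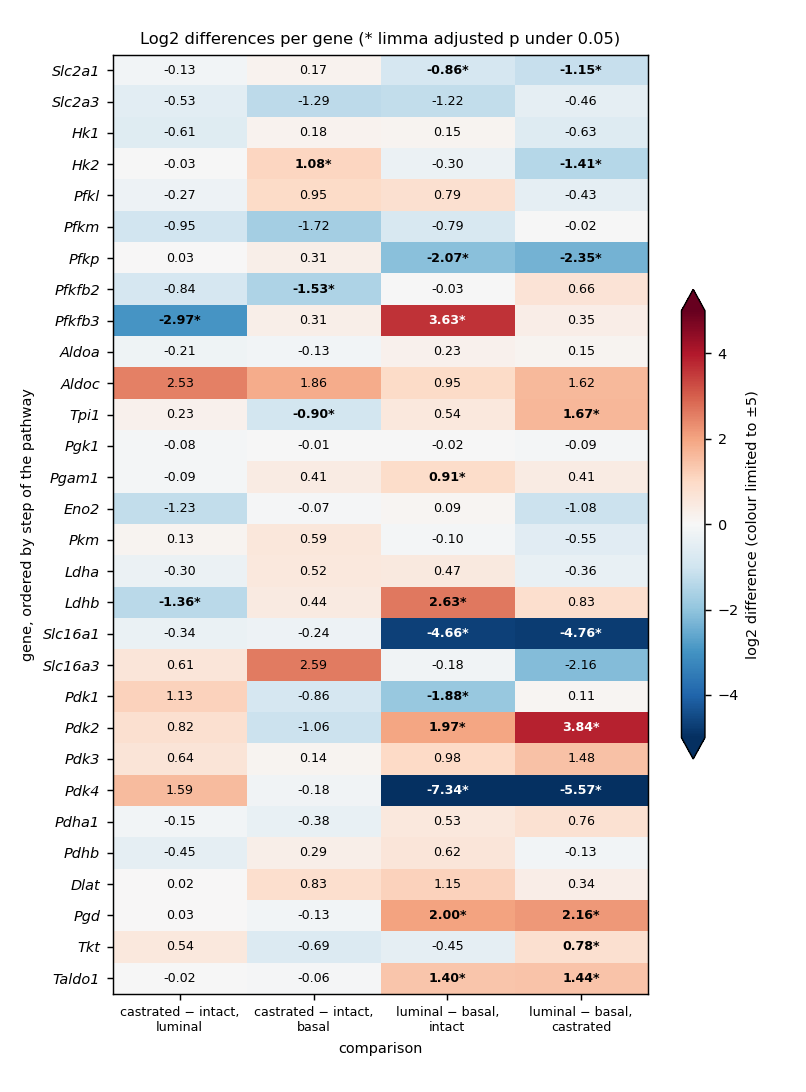
Log2 differences of the 30 genes (rows, in pathway order) in 4 comparisons (columns), coloured from blue (lower) to red (higher) with colour limited at 5, and with an asterisk where the limma adjusted p was under 0.05. The castration columns hold 5 asterisks in all and the luminal minus basal columns 21, led by Pdk4, Slc16a1, Pfkfb3 and Pdk2.

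**Figure D3:**
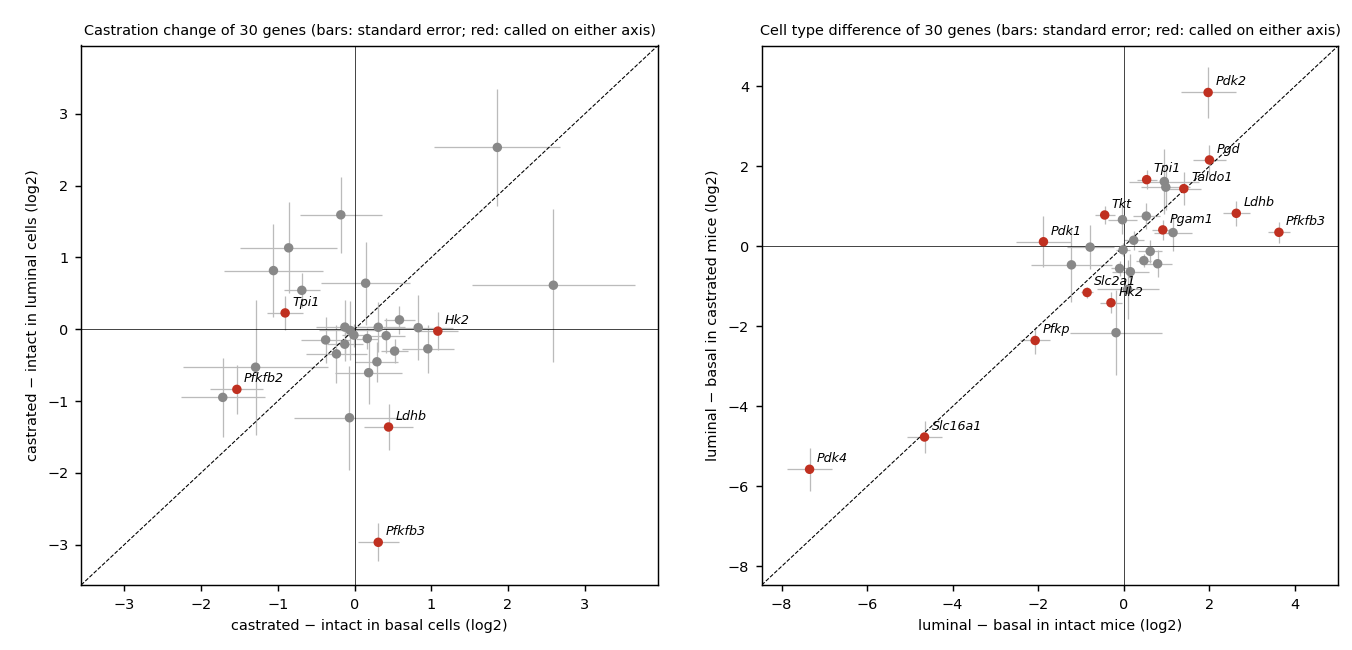
Castration change in luminal (y) against basal cells (x), left, and luminal minus basal difference in castrated (y) against intact mice (x), right, in log2 units for the 30 genes, with standard errors and with genes called on either axis in red. Pfkfb3 lies at 0.31 and -2.97 on the left, away from the diagonal, and Pdk4, Slc16a1, Pfkp, Pgd and Taldo1 lie in the same quadrant on both axes on the right.

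Isoforms of the same enzyme were compared within each array, as the log2 difference of 2 probe sets. Such a difference shows an unequal shift between cell types, not which isoform is more abundant. An exact two-sided permutation test exchanged luminal and basal labels within intact and within castrated arrays (400 arrangements, smallest possible p 0.005, adjusted over the 10 pairs tested). Of the 10 pairs, 5 passed. Pfkp minus Pfkl was -2.39 in luminal relative to basal cells, with -1.89 to -1.16 on the 6 luminal and -0.16 to 1.18 on the 6 basal arrays (adjusted exact p = 0.0125). Ldhb minus Ldha was 1.67 higher in luminal cells, from 2.16 in intact to 1.18 in castrated mice (adjusted exact p = 0.0125). In both pairs the luminal and basal arrays did not overlap.

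With the chosen probe sets, the kinases gave the widest shifts. Pdk4 minus Pdk1 was -5.58 and Pdk2 minus Pdk1 was 3.79 in luminal relative to basal cells (adjusted exact p = 0.0125 for each), again without overlap. Both pairs rest on the Pdk1 probe set at -1.88 for luminal minus basal in intact mice. Of 3 other Pdk1 probe sets, 1 had the same sign there, and another gave 0.92. The shifts were not computed with those probe sets. Slc16a3 minus Slc16a1 was 3.54 (adjusted exact p = 0.0400), with overlapping ranges, as castrated basal replicate 2 stood at -0.09. Slc16a3 was dim on 2 of 3 intact luminal and 2 of 3 intact basal arrays and differed by -0.18 between them, so the intact shift of 4.48 was that of Slc16a1 (-4.66). Only this pair lost its call without 1 array, in each such test but those without intact luminal replicate 1 and castrated basal replicate 2 (adjusted exact p 0.05 to 0.06). The pairs Hk2 minus Hk1 (-0.61, adjusted exact p = 0.150), Pfkm minus Pfkl, Aldoc minus Aldoa, Slc2a3 minus Slc2a1 and Pfkfb2 minus Pfkfb3 (-1.67, adjusted exact p = 0.142) did not pass. For Pfkfb2 minus Pfkfb3 the shift was -3.66 in intact and 0.31 in castrated mice.

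**Figure D4:**
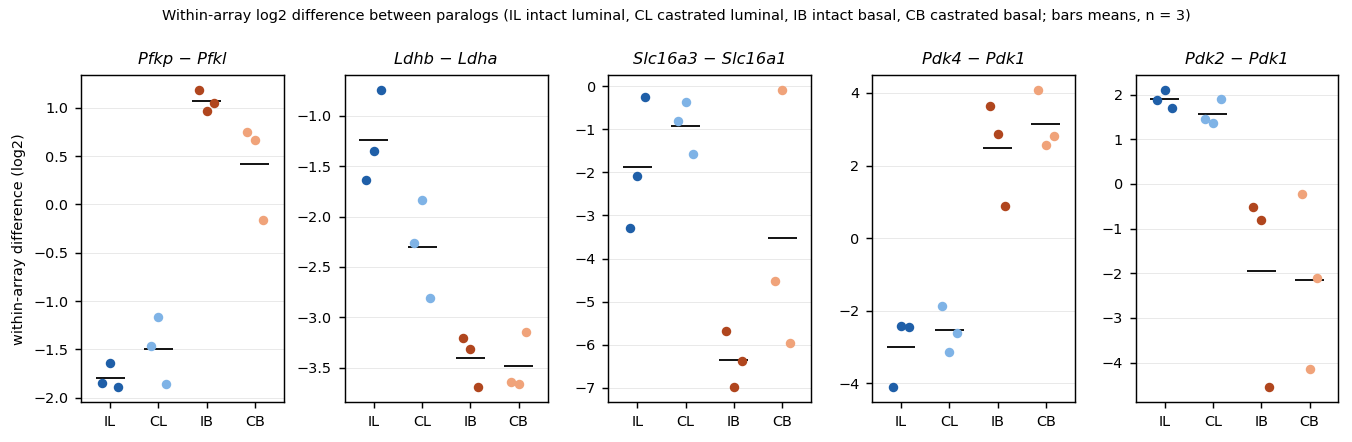
Within-array log2 difference between paralogs for the 5 pairs that passed, by group, with points for arrays and bars for means of 3. Luminal and basal arrays are apart for 4 of the pairs and overlap for Slc16a3 minus Slc16a1, where 1 castrated basal array lies at -0.09.

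Other genes of glucose and pyruvate metabolism were read from a list of 48, of which 39 were tested. In luminal cells 2 rose and 2 fell after castration (5.86% of all genes were called). Bpgm, bisphosphoglycerate mutase, which diverts a glycolytic intermediate to 2,3-bisphosphoglycerate, was 35943, 34283 and 40286 in intact and 2332, 2785 and 2641 in castrated luminal arrays. It fell by 3.82 (SE 0.42, adjusted p = 3.64e-05) with no overlap, and the summed signal of 3 erythroid genes, markers of the cells known for most Bpgm, was 194 to 333 in intact and 287 to 469 in castrated luminal arrays. The erythroid genes did not move together: the haemoglobin gene Hbb-b2 changed by -3.76 (adjusted p = 7.33e-04) and was dim on every castrated luminal array, as was Hba-a1, while Alas2, of haem synthesis, changed by 3.57 (adjusted p = 0.00118) and was dim on every intact one. Their part in the Bpgm fall was not tested. Pfkfb4, another enzyme of fructose 2,6-bisphosphate, changed by -3.01 ± 0.63 (adjusted p = 0.00789), a call lost without castrated luminal replicate 1 (adjusted p 0.0520). Fbp1, fructose 1,6-bisphosphatase, which runs the phosphofructokinase step backwards in gluconeogenesis, was 275, 411 and 276 in intact and 2409, 1968 and 2222 in castrated luminal arrays, a rise of 2.74 ± 0.56 (adjusted p = 0.00633). Rpia, ribose 5-phosphate isomerase, rose by 1.16 ± 0.29 (adjusted p = 0.0249), a call lost without intact luminal replicate 2 or 3 or any 1 castrated luminal array (adjusted p 0.0512 to 0.135).

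In basal cells, limma called none of the 39 after castration (2.62% of all genes were called), with 7 at an unadjusted p under 0.05. Luminal minus basal differences passed for 9 higher and 2 lower of 39 in intact mice (19.5% of all genes) and for 8 higher and 3 lower in castrated mice (18.4%). In intact mice the lowest adjusted p values belonged to Bpgm (4.02), Slc2a9, a urate and hexose carrier (-4.45), Slc16a7, the pyruvate and lactate carrier MCT2 (2.99), and Tktl1, a transketolase relative (-3.35). In castrated mice they belonged to Fbp1 (5.72), Pygb, a glycogen phosphorylase (1.82), Slc16a7 (2.85) and H6pd, the hexose 6-phosphate dehydrogenase of the endoplasmic reticulum (4.70), and the 3 lower genes were Tktl1 (-4.47), Slc2a9 (-2.56) and Slc2a4 (-3.08), the insulin-responsive transporter, a call lost without castrated luminal replicate 1 (adjusted p 0.0538). The dimmer side of several of these was low on the array, so the size of the difference is uncertain: Fbp1 was dim on 2 of 3 and H6pd on 1 of 3 castrated basal arrays, Tktl1 and Slc2a4 on 2 of 3 castrated luminal arrays, and Slc2a9 on 3 of 3 intact and 1 of 3 castrated luminal arrays. Slc16a7 was thus higher where Slc16a1 was lower, in the luminal cells of both intact and castrated mice.

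Of 27 genes for hypoxia-inducible factors, their targets outside glycolysis and regulators of glucose use, 8 passed in intact mice, all lower in luminal than in basal cells (19.5% of all genes called), and 9 in castrated mice (18.4%), 8 of them lower and 1, Txnip, an inhibitor of glucose uptake, higher (1.38). In intact mice Ndrg1, a stress-responsive target, was at a luminal minus basal difference of -2.63 ± 0.19 (adjusted p = 8.48e-08), Car9, carbonic anhydrase 9, -4.59 ± 0.58 (adjusted p = 3.35e-05) and Egln3, an oxygen-sensing prolyl hydroxylase, -4.54 ± 0.67 (adjusted p = 1.42e-04). Myc, which also drives glycolytic genes, was -1.05 ± 0.16 (adjusted p = 1.95e-04). After castration, Hif1a, the oxygen-regulated factor itself, rose by 1.07 ± 0.25 in luminal (adjusted p = 0.0143) and 1.08 ± 0.25 in basal cells (adjusted p = 0.0300). The luminal rise was lost without castrated luminal replicate 1 or 2 (adjusted p 0.0555 to 0.0876), and the basal rise without castrated luminal replicate 1, intact basal replicate 1 or 3, or castrated basal replicate 1 or 2 (adjusted p 0.0526 to 0.0924). In luminal cells Ndrg1 rose by 1.64 ± 0.19 (adjusted p = 5.76e-05) and Epas1, which encodes HIF-2 alpha, changed by -1.57 ± 0.28 (adjusted p = 0.00213).

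Of a list of 22 genes of the citrate cycle and related enzymes, 21 were tested. Besides enzymes of the mitochondrial cycle, the list held cytosolic isoenzymes, such as Idh1 and Mdh1, and malic enzymes. Idh1, cytosolic isocitrate dehydrogenase, rose in luminal cells after castration (1.89 ± 0.53, adjusted p = 0.0435), but the call was lost without any 1 of the 6 luminal arrays or intact basal replicate 1 (adjusted p 0.0520 to 0.166) and with the replicate block (0.0556). None of the 21 passed in basal cells after castration (2.62% of all genes were called), where limma gave 1 at an unadjusted p under 0.05. Luminal cells were higher for 4 and lower for 1 of 21 in intact mice (19.5% of all genes), with a median difference of 0.34 against 0.07 over all genes, and higher for 8 and lower for 1 in castrated mice (18.4%), with a median difference of 0.91 against 0.08 over all genes. The 4 in intact mice were Mdh1 (1.01), Sdha (1.34), Idh1 (1.95) and Idh2 (1.55), of which Idh1 was lost without intact luminal replicate 2 or intact basal replicate 2 (adjusted p 0.0550 to 0.0650) and Idh2 without intact luminal replicate 2 or 3 or intact basal replicate 1 or 2 (adjusted p 0.0543 to 0.0978). In castrated mice the 8 included Sdha (1.83) of succinate dehydrogenase, Fh1 (2.70), fumarase, and Idh1 (3.33). Ogdh, of the 2-oxoglutarate dehydrogenase complex, was the lower one in both, at -2.06 and -1.67, the second lost without castrated luminal replicate 1 or 3 or castrated basal replicate 2 (adjusted p 0.0701 to 0.0865). Both Ogdh calls were lost when the probe sets of a gene were averaged (limma adjusted p = 0.104 in intact and 0.217 in castrated mice).

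Promoters are shown for Pfkfb3, Ldhb, Pdk4 and Slc16a1, picked after their values were seen from the members that differed by castration or cell type, so that the letters next to their start sites can be read beside the values above. Each is 250 bases directly before a RefSeq transcript start in build GRCm38.p6, 5′ to 3′ on the gene's strand. Capitals mark 3 motifs searched on both strands. ACGTG is the common core of the hypoxia response element, its variant core is GCGTG, and a half-site of the androgen receptor element reads AGAACA. Pfkfb3 lies on the minus strand of chromosome 2 and has 2 starts in the table, with promoters at chr2:11553930-11554179 and chr2:11502091-11502340. The Ldhb promoter is at chr6:142507958-142508207 (minus strand), that of Pdk4 at chr6:5496279-5496528 (minus strand) and that of Slc16a1 at chr3:104638414-104638663 (plus strand).
Pfkfb3 start 1: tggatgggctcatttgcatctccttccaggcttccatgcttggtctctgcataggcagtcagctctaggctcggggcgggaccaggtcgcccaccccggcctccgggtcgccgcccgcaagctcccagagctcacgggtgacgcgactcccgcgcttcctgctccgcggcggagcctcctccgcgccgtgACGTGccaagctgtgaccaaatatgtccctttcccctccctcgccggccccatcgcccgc
Pfkfb3 start 2: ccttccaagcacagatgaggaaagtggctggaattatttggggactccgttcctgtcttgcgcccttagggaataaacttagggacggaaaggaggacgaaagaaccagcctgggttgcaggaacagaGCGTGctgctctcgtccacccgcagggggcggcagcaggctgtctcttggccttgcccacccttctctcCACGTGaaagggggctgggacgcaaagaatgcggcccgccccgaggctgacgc
Ldhb: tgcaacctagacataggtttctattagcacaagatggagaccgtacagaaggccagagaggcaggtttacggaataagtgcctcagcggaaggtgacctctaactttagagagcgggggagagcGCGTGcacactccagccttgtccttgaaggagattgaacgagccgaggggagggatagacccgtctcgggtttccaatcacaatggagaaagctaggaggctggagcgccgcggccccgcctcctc
Pdk4: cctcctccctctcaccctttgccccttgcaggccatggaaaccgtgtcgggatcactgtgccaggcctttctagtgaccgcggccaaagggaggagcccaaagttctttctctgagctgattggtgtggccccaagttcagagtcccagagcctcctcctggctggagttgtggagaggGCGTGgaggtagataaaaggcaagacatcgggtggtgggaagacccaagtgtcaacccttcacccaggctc
Slc16a1: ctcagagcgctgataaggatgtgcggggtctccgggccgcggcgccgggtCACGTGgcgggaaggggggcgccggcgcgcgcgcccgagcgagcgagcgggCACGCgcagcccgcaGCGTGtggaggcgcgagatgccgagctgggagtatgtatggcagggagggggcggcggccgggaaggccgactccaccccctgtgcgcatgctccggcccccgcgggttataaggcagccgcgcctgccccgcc

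The first Pfkfb3 promoter held 1 ACGTG. The second held 1 GCGTG besides the palindrome CACGTG, which gives the common core once on each strand, overlapping. Ldhb and Pdk4 each held 1 GCGTG, and Slc16a1 held 2 of the same besides 1 palindrome. The androgen receptor half-site was in none of the 5 windows, which says nothing of binding elsewhere. Over 50 promoters of the 33 genes matched in the table, the common core was present in 19 (16.6% of all 32851 promoters hold it), the variant core in 28 (28.2% of all) and the half-site in 10 (16.1% of all). Either core was present in 78.0% of these promoters, in 52.3% of 14906 promoters of the tested genes and in 38.6% of all, and the median GC content of the 3 sets was 60.4%, 58.8% and 52.4%. A match is a description of the letters, and these promoters were not assayed here.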

How the data were processed

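Per the labels' protocols, the NuGEN Pico kit amplified RNA that had been extracted with the RNeasy Micro kit. The authors deposited MAS5 signal intensity for 45101 probe sets on a linear scale, per the submitters' processing notes, with the version not given in the sources used here. With 2% trimmed from both ends, every array had a mean of 500.0, so arrays were already scaled to 1 target. Such scaling sets overall levels equal and cannot show a shared shift. The number of arrays limits the precision.

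Control probe sets (64) were left out, 16 was added before log2, and a probe set was kept if it exceeded the 40th percentile of 3 or more arrays and a given annotation table named 1 gene symbol (34945 of them; 932 had several and 9160 none). The probe set with the highest mean stood for its gene. The 4 group means were fitted on all 12 arrays with limma 3.58.1 (R 4.3.3), with an intensity trend and Benjamini-Hochberg adjustment, and the scripts were tested on simulated data. Plots used Python 3.11.15 with pandas 2.3.3 and matplotlib 3.10.9. Gene names, starts and promoters came from RefSeq tables of GRCm38.p6, not from the array design.

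All members are accounted for; other genes were named when called, at most 4 per comparison and list by adjusted p, besides 8 check genes. Txnip, Slc2a4, and Slc2a9, Tktl1, Ogdh and Idh2 in part, were named after their values were seen. The members and lists were chosen with earlier results of these data known. Replicate numbers pair the arrays by the design text, which speaks of paired intact animals; deviations of equal-numbered arrays from their group means correlated at only -0.00723 to 0.0258 across genes over 18 pairs. The fit has no block, and the blocked value stands beside each call it changes. Whether animals were pooled within a set is not stated in the sources used here.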

Additional observations from a re-analysis of the deposited data

Results flagged for a closer look

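The castration change of Pfkfb3 differed between luminal and basal cells by -3.28 on the log2 scale, tested as the interaction term in limma (adjusted p = 5.84e-04). It fell in luminal cells (-2.97) on all 3 castrated arrays relative to all 3 intact arrays and was 0.31 in basal cells. The second Pfkfb3 probe set gave -2.32. The summed leukocyte signal was also highest in intact luminal arrays, and its part was not tested. Of the 11 leukocyte genes, 1 fell in luminal cells after castration (2.96% of all genes).

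The castration change of Fbp1 differed by 3.59 by the same interaction term (adjusted p = 0.0353), with 2.74 in luminal and -0.85 in basal cells, where its signal was 117, 26.6 and 59.8 in intact and 11.2, 25.2 and 49.6 in castrated arrays. Fbp1 was at or below the 40th percentile on 1 of the 3 intact and 2 of the 3 castrated basal arrays, so the basal value and the size of the difference are taken against a low signal. This call was lost in 10 of 12 fits without 1 array (all but those without intact basal replicate 2 and castrated basal replicate 3, adjusted p 0.0517 to 0.128) and with the replicate block (adjusted p = 0.0572).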

How the results depend on the processing

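Alternatives covered scaling, the added constant, the filter, the probe set rule, the variance model, the replicate block and leaving out each array. Leaving out all replicate 3 arrays, and dropping probe sets open to cross-hybridisation, were chosen after seeing the data. The luminal castration count of 2 members became 1 without the intensity trend, 6 with array weights, 1 without all replicate 3 arrays and 1 without cross-hybridising probe sets, and 1 to 3 without single arrays. The basal count of 3 became 1 with the mean of probe sets, 1 with the replicate block, and 0 without the intensity trend, with array weights, with 2-group fits and without all replicate 3 arrays, where limma gave 7, 10, 9 and 11 at an unadjusted p under 0.05, and 0 to 4 without single arrays. The interaction count of 1 became 2 under quantile normalization, with the mean of probe sets, with every probe set taken singly and without cross-hybridising probe sets, 3 with array weights, and 1 to 2 without single arrays. Luminal against basal counts stayed within 8 to 13 in intact and 9 to 14 in castrated mice, and without single arrays both within 8 to 11. Of the 10 paralog pairs 4 to 5 passed without single arrays and 0 without all replicate 3 arrays, where the smallest p the exact test can give is 0.0556.

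With the replicate block, Hk2 and Tpi1 in basal cells, Pdk1 in intact mice and, among other genes named, Idh1 in luminal cells and Fbp1 in the interaction lost their calls; Pfkfb3 in luminal cells kept its call (adjusted p = 2.26e-05). No called member changed direction under any alternative. Under quantile normalization Krt18 in luminal cells after castration reversed to 0.41, Krt18 between castrated cell types to 0.54 and Actb in luminal cells after castration to 0.20. Counts over all genes ranged over the alternatives from 394 to 1945 (858 reported) for luminal castration, 120 to 626 (384) for basal castration, 2082 to 3364 (2852) and 1705 to 3920 (2701) for the cell types in intact and castrated mice, and 27 to 246 (168) for the interaction. Of the members' values under alternatives, 3854 stayed on the same side of the threshold (177 uncalled ones changed sign), 50 newly passed and 101 no longer passed. Most of the 3854 were uncalled in the reported fit as well, and only values called there could be among the 101. Dim members (Slc2a3, Slc16a3, Eno2, Aldoc and Pdk4 in luminal cells) are limited by low signal.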
